A study of Arabidopsis thaliana with 12 samples.

Results

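Expansins are plant cell wall proteins that loosen the wall at acid pH without cutting its polymers, and their transcripts were followed here in roots of Arabidopsis thaliana treated with cellotriose (CT), a fragment of cellulose made of glucose units. The family was taken as a list of 31 gene identifiers, by family membership and not by any measured value. Of these genes, 25 had a row among the 23106 genes of the deposited tables. They comprised 18 of 21 α-expansins (EXPA), 3 of 6 β-expansins (EXPB), all 3 genes of expansin-like family A (EXLA) and the 1 listed gene of expansin-like family B (EXLB). EXPA2, EXPA22, EXPA25, EXPB4, EXPB5 and EXPB6 had no row and were not analysed here.

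The seedlings were segregants of a cross between the T-DNA line cork1-2 and an aequorin-containing wild type, with seedlings that segregated as wild type (SWT) and seedlings homozygous for the T-DNA (HO). CORK1 encodes a receptor kinase with leucine-rich repeats and a malectin domain, and the insertion lies in an exon towards the 3′ end of that gene. Each genotype received 1 mL of water or of 10 µM CT for 1 h, after 10 days on MS medium and 1 day on PNM medium, which gave 4 groups of 3 RNA-seq libraries with the roots of 16 seedlings in each. The libraries of all groups came from the same cross, as segregants of its F3 generation. Other differences between the SWT and HO segregants cannot be told apart from the insertion. The labels do not say whether the replicates were separate cultures. The p-values therefore measure only the spread between these libraries, which may be technical.

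The tables give a mean normalized read count per gene, and log2 fold changes with standard errors (SE) for CT against water in SWT, CT against water in HO, and HO against SWT in water. Values per library and library depth are not in these tables, so each group is shown as the mean recovered from the overall count and the fold changes, and the spread between replicates as a coefficient of variation (CV) recovered from the SEs. CORK1 (AT1G56145) in HO was at 18.1% of its SWT level in water (log2 fold change -2.47, SE 0.16, adjusted p = 2.93e-52) and at 15.1% with CT. All 7 root marker genes were present, with mean counts from 189 to 16147, and 0 of them passed an adjusted p of 0.05 in any comparison by the Wald or z tests (at most 1 at an unadjusted p below 0.05). Mean counts over all genes had a median of 283.

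Growth by cell expansion depends on the wall giving way to turgor, and expansins act there on the contact between cellulose and the matrix polymers. The α-expansins are the family members best known for this action in dicot walls, β-expansins include the pollen allergens of grasses, and the expansin-like proteins share their fold without a wall-loosening activity being established. EXPA7 and EXPA18 are known from root hair cells, where they are used as markers of hair outgrowth, and EXPA14 and EXPA17 from lateral root emergence downstream of the transcription factor LBD18.

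EXPA7 and EXPA18 had the highest and the third-highest level per kb of exon in these roots, and the 300 bases before their annotated starts are shown because both hold the core of the root hair element, the sequence from which hair cell expression of such genes has been mapped. The sequences are from the RefSeq copy of TAIR10.1, 5′ to 3′ on the strand of the gene. Capitals mark the searched cores, which are GCACGT and the related words GCACGA or TCACGT as well as TCACGA.
EXPA7, chr1:4276205-4276504, plus strand: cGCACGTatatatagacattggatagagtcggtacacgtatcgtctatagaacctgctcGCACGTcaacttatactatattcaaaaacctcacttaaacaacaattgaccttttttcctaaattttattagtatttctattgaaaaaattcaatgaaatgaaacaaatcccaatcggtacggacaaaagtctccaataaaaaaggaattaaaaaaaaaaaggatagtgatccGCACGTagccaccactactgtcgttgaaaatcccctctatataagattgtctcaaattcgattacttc
EXPA18, chr1:23331263-23331562, plus strand: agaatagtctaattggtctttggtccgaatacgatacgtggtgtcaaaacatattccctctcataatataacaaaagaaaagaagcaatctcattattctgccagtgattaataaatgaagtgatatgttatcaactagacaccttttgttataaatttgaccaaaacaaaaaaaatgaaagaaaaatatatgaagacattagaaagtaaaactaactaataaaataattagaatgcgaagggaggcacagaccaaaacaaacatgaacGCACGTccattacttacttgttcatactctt
The core GCACGT stood 3 times in the EXPA7 sequence, from bases 299, 241 and 68 before the start, and once in that of EXPA18, from base 31. A further gene, AT1G62978, reaches into the EXPA18 window on the other strand. Searched on both strands, 7 of the 25 expansin genes held at least 1 of these cores in that window, against 21.0% of 21881 protein-coding genes of the tables. A W-box (TTGACC or TTGACT), the element bound by WRKY factors, was present in 6 of 25 against 32.6% of all genes. The G-box CACGTG, which can overlap a root hair core, was present in 1 of 25 against 7.84%. The auxin response element TGTCTC was present in 4 of 25 against 12.9%. EXPA14 held none of these motifs, and EXPA3 held the root hair core at 2 positions. Such matches are letters in a window and not mapped binding sites.

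Expansin transcripts were dominated by a few α-expansins. Summed over the 25 genes, EXPA7, EXPA4, EXPA18 and EXPA9 held 54.1% of the normalized counts and the 8 genes of highest mean held 78.4%, while the whole family held 0.092% of the counts of all genes. EXPA7 (AT1G12560, chromosome 1, 4276505 to 4277969) had a mean of 3184, or 2850 per kb of exon, with a CV of 18.4%. Its group means were 2997 in SWT with water, 3301 in SWT with CT, 3352 in HO with water and 3085 in HO with CT. The highest of these was 1.12 times the lowest, which is less than the replicate spread.

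EXPA4 (AT2G39700, chromosome 2, 16543832 to 16545746) followed at 2027 per kb, with group means of 3095, 3236, 2828 and 3003 in the same order of groups. EXPA18 (AT1G62980, chromosome 1, 23331563 to 23333246) was at 1665 per kb, with 2084, 1915, 2252 and 2080. Both were nearly level across the 4 groups. EXPA9 (AT5G02260, chromosome 5, 463073 to 465273) was at 1456 per kb, with 1997, 1864, 2211 and 1852. EXPA17 (AT4G01630, chromosome 4, 700566 to 701769) was at 1056 per kb, with 1101, 1189, 1156 and 1187. The group means of EXPA17 lay within 1.08-fold of each other although its replicate CV was 43.0%.

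The β-expansin EXPB3 (AT4G28250, chromosome 4, 13999625 to 14002124) was the leading gene outside the α-expansins, at 894 per kb, with group means of 1848 in SWT with water, 1389 in SWT with CT, 2014 in HO with water and 2217 in HO with CT. EXLB1 (AT4G17030, chromosome 4, 9581562 to 9583290) was at 668 per kb, with 867, 891, 617 and 612. EXPA15 (AT2G03090, chromosome 2, 916806 to 918671) was at 591 per kb, with 998, 584, 884 and 927. For EXLB1 both SWT groups were above both HO groups, and for EXPA15 the SWT group with CT was the low one.

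The other 17 genes with values ranged from EXLA1 at 510 per kb to EXPA5 at 1.62 per kb. In this order 19 of 24 neighbouring pairs differed by less than the larger of their CVs, while EXPA7 stood above EXPA4 by 1.41-fold, more than either CV. The CV describes single libraries and the order rests on means over 12 libraries, so whether ranks were separated was not tested. EXPA3, EXPB2, EXPA20, EXPA16 and EXPA5 had means below 50, and EXPA20, EXPA16 and EXPA5 below 5 (4.77, 2.49 and 2.31). EXPA5 is known from brassinosteroid-dependent growth of aerial organs, and EXPA16 and EXPA5 had at most 4.41 normalized counts as a group mean. Among the 20 genes whose mean reached 50, the highest group mean was 1.08 to 2.52 times the lowest, and 12 had a ratio under 1.5. In bulk roots, fewer cells of a type and less RNA per cell cannot be told apart in such levels. The sources used here do not say whether reads were counted by strand, so genes that overlap another on the opposite strand are uncertain: EXLA1 overlaps the more abundant AT3G45980 (mean 1714), whereas the partners of EXPA7 and EXPA20 had means below 3 and that of EXPA18 had no row.

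**Figure D1:**
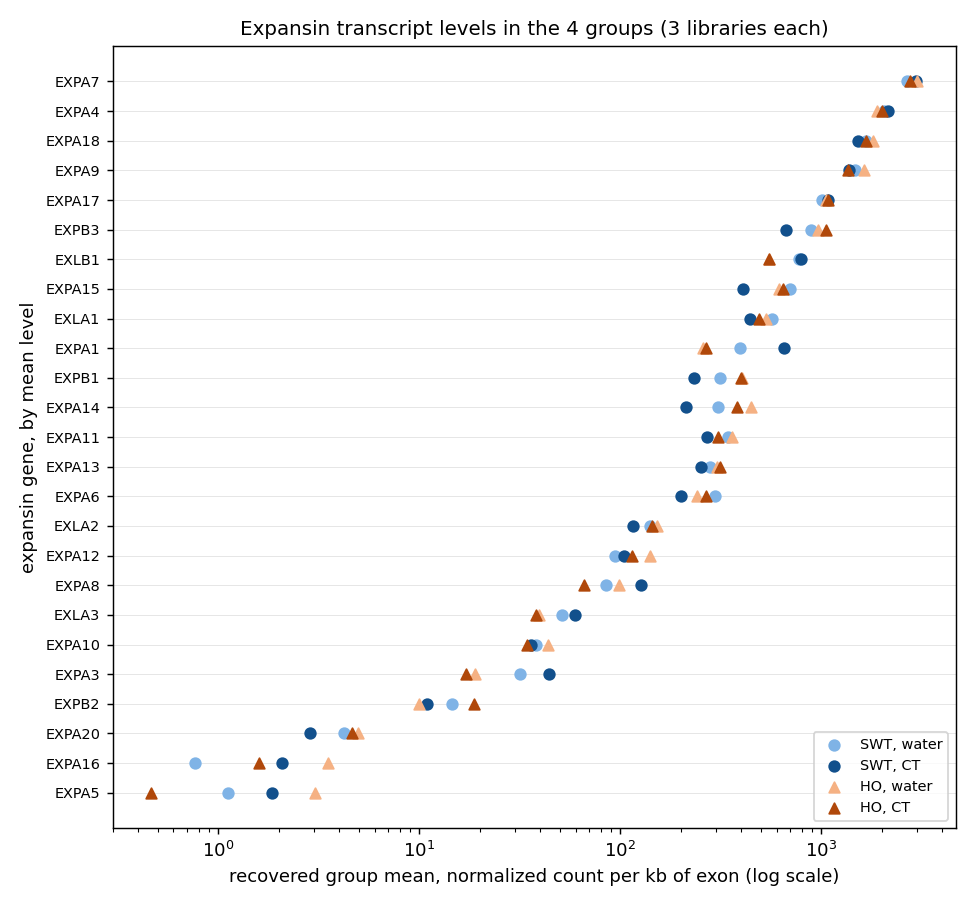
Recovered group mean of each expansin gene with values, as normalized counts per kb of exon on a log axis, with 1 point for each of the 4 groups. The genes run from EXPA7 at 2850 per kb over all libraries to EXPA5 at 1.62 per kb, and most genes of high level have their 4 points close together.

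CT did not change any expansin gene of SWT roots past the threshold. By the Wald test in the authors' deposited table, 0 of the 23 genes with an adjusted p were below 0.05, against 11.5% of all genes tested, and 0 met the study's criteria, which also ask for a log2 fold change of 1.33 or more in size, against 2.83% of all genes. At an unadjusted p below 0.05 there were 2 of 25 genes, both lower with CT, against 20.8% of all genes. The log2 fold changes of the 25 genes had a median of -0.10, against -0.01 over all genes, with 11 above and 14 below 0, and those of the 20 genes whose mean reached 50 ran from -0.77 to 0.73.

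EXPA15 had the lowest p of the family in SWT, with a mean of 998 in water and 584 with CT (log2 fold change -0.77, SE 0.30, 95% interval -1.36 to -0.19, adjusted p = 0.0730). EXPA6 (AT2G28950, chromosome 2, 12431338 to 12433796), named after its values were seen, had 472 in water and 321 with CT (log2 fold change -0.56, SE 0.25, adjusted p = 0.152). Neither passed the adjusted threshold. EXPA14 had 524 in water and 362 with CT (log2 fold change -0.54, SE 0.28, adjusted p = 0.248). The α-expansins of highest level had small estimates: 0.14 for EXPA7 (SE 0.22), 0.06 for EXPA4 (SE 0.29), -0.12 for EXPA18 (SE 0.22) and -0.10 for EXPA9 (SE 0.19).

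By subfamily, the 3 β-expansins had a median log2 fold change of -0.41 in SWT and sums of their group means of 2345 (water) and 1758 (CT). For the 3 EXLA genes, of which EXLA2 is known from susceptibility to Botrytis, the median was -0.28. The 18 α-expansins had a median of -0.01 and sums of 15087 and 14942. EXPB3 gave -0.41 (SE 0.29, adjusted p = 0.426), EXLB1 0.04 (SE 0.45) and EXPA17 0.11 (SE 0.51), none past the threshold.

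The intervals, taken from the SEs as deposited, set how large a response could have gone unseen. Over all genes the Wald statistics of this comparison had a robust spread of 1.45, and no interval was widened for it. Whether real responses or too small SEs gave that spread was not tested. Of the 20 genes whose mean reached 50, 17 (85%) had a 95% interval of the SWT response inside the study's fold criterion in both directions, against 93.1% of all genes at that level. Intervals inside 1 log2 unit were held by 14 of 20 genes (70%), against 85.9% of all genes. EXPA7 was among them, with an interval of -0.28 to 0.56. The genes whose intervals reached past the criterion were EXPA15 (down to -1.36), EXPA1 (up to 1.73) and EXPA8 (up to 1.501). EXPA1, known from guard cells and from the founder cells of lateral roots, had 608 in water and 1010 with CT (log2 fold change 0.73, SE 0.51, adjusted p = 0.429). The 95% interval for EXPA1, from -0.27 to 1.73, included 0, and its CV of 43.3% was the highest among those 20 genes.

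**Figure D2:**
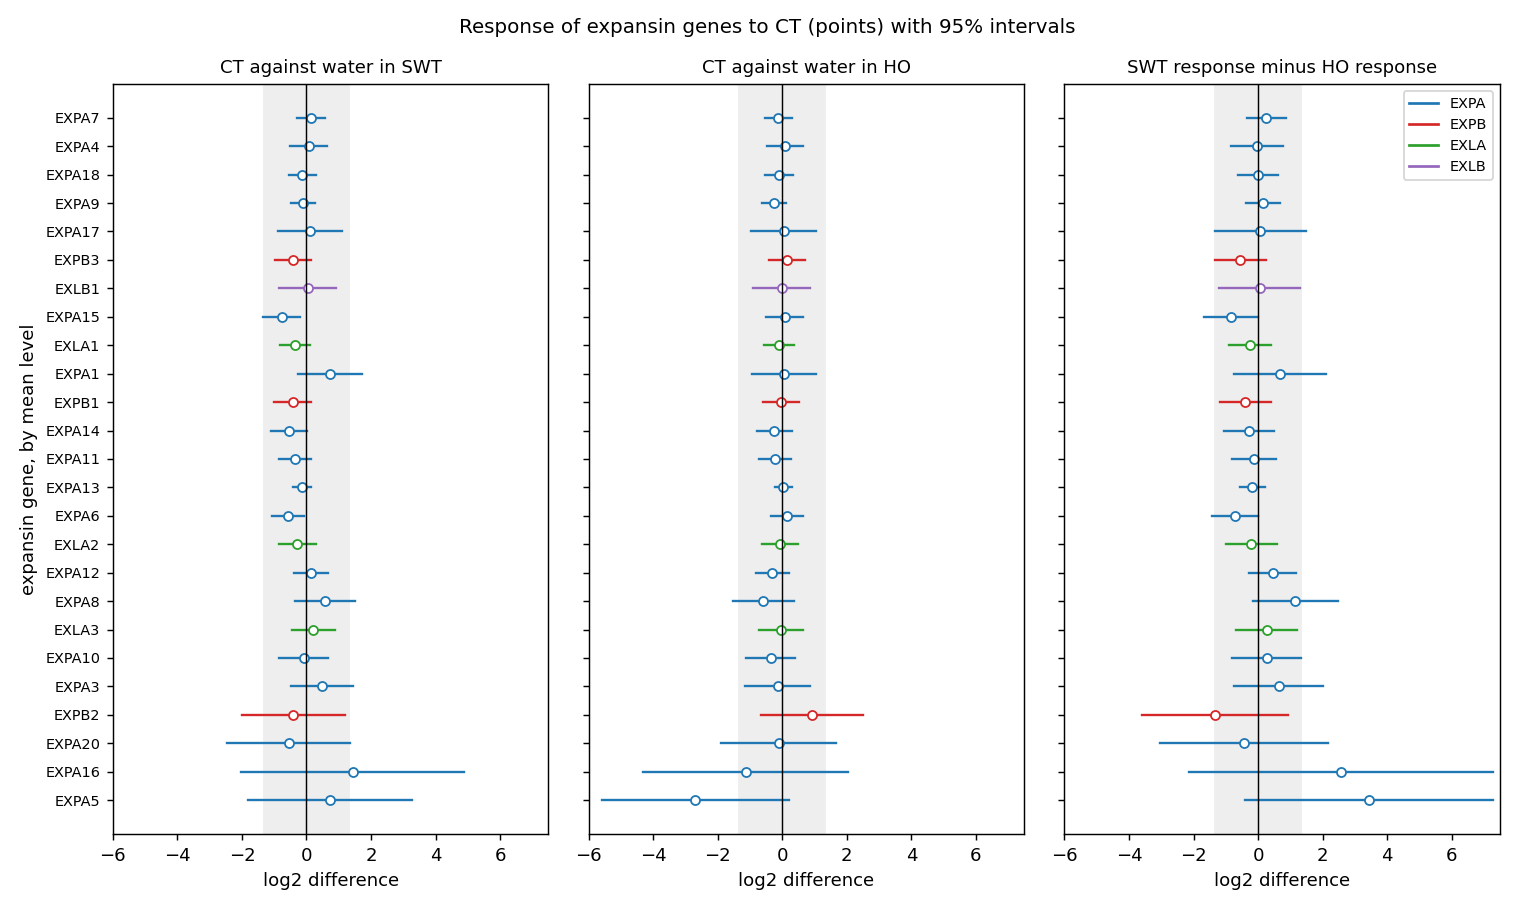
Log2 fold change with CT in SWT and in HO, and the SWT response minus the HO response, for each expansin gene with values. Bars are 95% intervals, the grey band spans the study's criterion of 1.33 in both directions and filled points would mark an adjusted p below 0.05, which none of the genes reached in these comparisons.

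No expansin gene of HO roots changed with CT past the threshold. The Wald test gave 0 of 25 genes at an adjusted p below 0.05, against 0.00866% of all genes, and 0 of 25 at an unadjusted p below 0.05, against 1.85%. The median log2 fold change was -0.11, against -0.01 over all genes, with 8 genes above and 17 below 0. EXPA15 had 884 in water and 927 with CT (log2 fold change 0.07, SE 0.30), and EXPA6 had 381 and 426 (0.16, SE 0.25). EXPA9 had the largest estimate among the 8 genes of highest level per kb, at -0.26 (SE 0.19, adjusted p = 1.00). EXPB3 was at 0.14 (SE 0.28) and EXPA14 at -0.24 (SE 0.28). For 19 of the 20 genes whose mean reached 50 (95%) the 95% interval lay inside the study's criterion, against 98.3% of all genes at that level.

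The responses of SWT and HO share no library, and their difference was tested for each gene. No expansin gene differed between the genotypes in its response by a z test adjusted over all genes, with 0 of 25 at an adjusted p below 0.05 against 3.95% of all genes, and 2 of 25 at an unadjusted p below 0.05 against 11.9%. These were EXPA15, where the SWT response was 0.84 log2 units below the HO response (-0.84, SE 0.42, adjusted p = 0.399), and EXPA6 (-0.72, SE 0.36, adjusted p = 0.393). Of the root hair expansins, EXPA7 had a difference of 0.26 (SE 0.31, 95% interval -0.34 to 0.86) and EXPA18 one of -0.01 (SE 0.31, 95% interval -0.62 to 0.60). A difference as large as the study's criterion was outside the interval for 13 of the same 20 genes (65%), against 88.2% of all genes whose mean reached 50. EXPA8, chosen after its values were seen, had the largest estimate among those 20, at 1.15 (SE 0.67, adjusted p = 0.548), from 113 to 168 with CT in SWT and from 131 to 87.2 in HO.

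In water-treated roots, HO and SWT differed past the threshold in no expansin gene. This comparison shares its libraries of SWT with water with the SWT response, and those of HO with water with the HO response. The Wald test of HO against SWT in water gave 0 of 25 genes at an adjusted p below 0.05, against 0.190% of all genes, and 1 of 25 at an unadjusted p below 0.05, against 4.71%. That gene was EXPA12 (AT3G15370), with 109 in SWT and 164 in HO (log2 fold change 0.59, SE 0.26, adjusted p = 0.962). The median was 0.11, against 0.00 over all genes, with 16 genes above and 9 below 0. EXPA14 had 524 in SWT and 766 in HO (0.55, SE 0.28, adjusted p = 1.00), EXLB1 had 867 and 617 (-0.49, SE 0.45), and EXPA3 had 56.5 and 33.7 (-0.74, SE 0.50). EXPA7 and EXPA18 were at 0.16 (SE 0.22) and 0.11 (SE 0.22).

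With CT present, 2 expansin genes differed between HO and SWT, EXPA14 upwards and EXPA3 downwards. This comparison was derived from the 3 tables and shares its libraries with all of them. By its z test, adjusted over all genes, 2 of 25 genes (8%) were below an adjusted p of 0.05, against 13.3% of all genes. In the upward direction this was 1 of 25 against 4.28%, and in the downward direction 1 of 25 against 9.00%. At an unadjusted p below 0.05 there were 8 of 25, against 22.9%.

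EXPA14 (AT5G56320, chromosome 5, 22808641 to 22810747, 4 exons) had a mean of 575, with 524 in SWT with water, 362 in SWT with CT, 766 in HO with water and 647 in HO with CT. Both HO groups lay above both SWT groups. Against SWT with CT, HO with CT was 1.79-fold higher (95% interval 1.22 to 2.62, log2 difference 0.84, SE 0.28, adjusted p = 0.0263). The difference in water was 0.55 (SE 0.28), and the responses of the genotypes to CT did not differ past the threshold (-0.29, SE 0.40, adjusted p = 0.895). EXPA3 (AT2G37640, chromosome 2, 15787523 to 15790139, 3 exons) had a mean of 49.96, with 56.5, 79.2, 33.7 and 30.5 in the same order of groups. With CT it was at 0.384 times the SWT level in HO (95% interval 0.196 to 0.755, log2 difference -1.38, SE 0.50, adjusted p = 0.0433), and it was the only expansin gene that also met the study's fold criterion in this comparison. Its CV of 42.2% made this interval wide. When the z statistics were divided by their robust spread over all genes, 1.52 in this comparison, both calls were lost, at an adjusted p of 0.451 for EXPA14 and 0.530 for EXPA3.

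The other 6 genes at an unadjusted p below 0.05 did not pass the adjusted threshold and are named because of their values. EXPB1 (AT2G20750) had 357 in SWT with CT and 606 in HO with CT (log2 difference 0.76, SE 0.28, adjusted p = 0.0538). EXPB3 had 1389 and 2217 (0.67, SE 0.28, adjusted p = 0.106) and EXPA15 584 and 927 (0.67, SE 0.30, adjusted p = 0.137). EXPA13 had 365 and 450 (0.30, SE 0.14, adjusted p = 0.161). EXPA1 had 1010 and 415 (-1.28, SE 0.51, adjusted p = 0.0776), and EXPA8 had 168 and 87.2 (-0.94, SE 0.48, adjusted p = 0.211). The β-expansins as a group had summed means of 1758 in SWT with CT and 2843 in HO with CT, and a median log2 difference of 0.76.

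Genes of photosynthetic shoot tissue moved in the same comparisons. All 6 shoot markers had values, with summed group means of 3289 in SWT with water, 2245 in SWT with CT, 3760 in HO with water and 3658 in HO with CT. Their median was -0.69 for CT in SWT, where LHCB2.1 (-0.86, adjusted p = 0.0407) and RCA (-0.56, adjusted p = 0.0264) fell, and 0.69 for HO against SWT with CT, where 3 of 6 were higher in HO: RBCS1A (0.72), RCA (0.66) and LHCB2.1 (0.83). Over all genes these medians were -0.01 and 0.00, and the shares called were 11.5% in SWT and 13.3% with CT, 4.28% being higher in HO. In HO with CT and in water, 0 of 6 passed at an adjusted or an unadjusted p of 0.05. Whether these markers changed through shoot material or within root cells was not tested. Nor was any part of shoot material in the values of EXPA14, EXPA15 and the β-expansins.

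**Figure D3:**
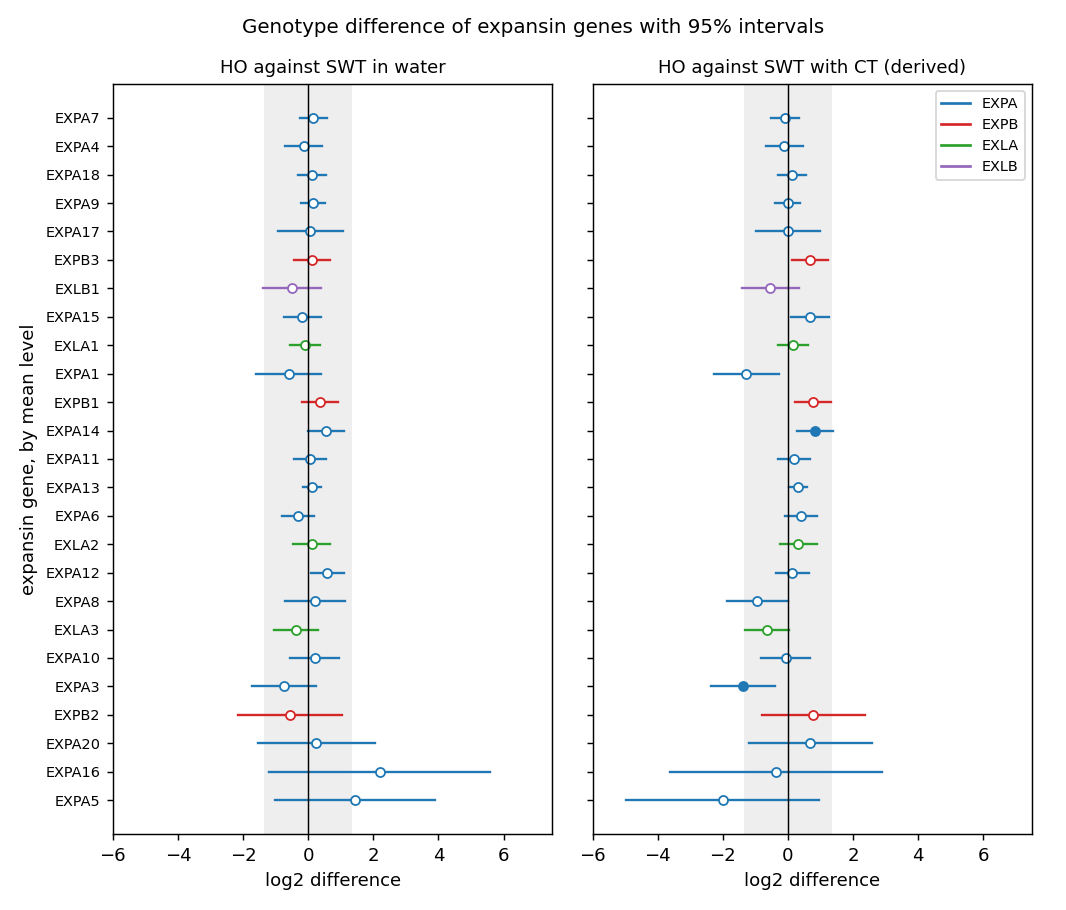
Log2 difference of HO against SWT, in water and with CT, for each expansin gene with values. Bars are 95% intervals, the grey band spans the study's criterion in both directions and filled points have an adjusted p below 0.05, which only EXPA14 (0.84) and EXPA3 (-1.38) reached, both with CT.

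Expansin transcripts varied more between replicate libraries than most genes in the same range of mean count. Among the 12 expansin genes with a mean of 500 to 5000, the median CV was 24.2%, against 11.7% for the 7901 genes in that range, all 12 lay above that median and 9 of 12 lay above the 90th percentile of 19.1%. In the range from 50 to 500 the 8 expansin genes had a median of 23.3%, against 18.0% for 9008 genes, with 7 above that median and 3 above the 90th percentile of 28.8%. The CV is 1 value per gene from a fit across all groups, so it is given as a description. It includes the noise of counting, which weighs more at the low end of a range, and genes were not matched by mean within a range. EXPA1 (43.3%), EXPA17 (43.0%) and EXLB1 (38.2%) were the most variable of the abundant genes, and EXPA13 had the lowest CV of the family, at 11.995%. For comparison, 14 root hair genes with a mean of 500 to 5000 had a median of 14.6%, with 3 above the 90th percentile.

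**Figure D4:**
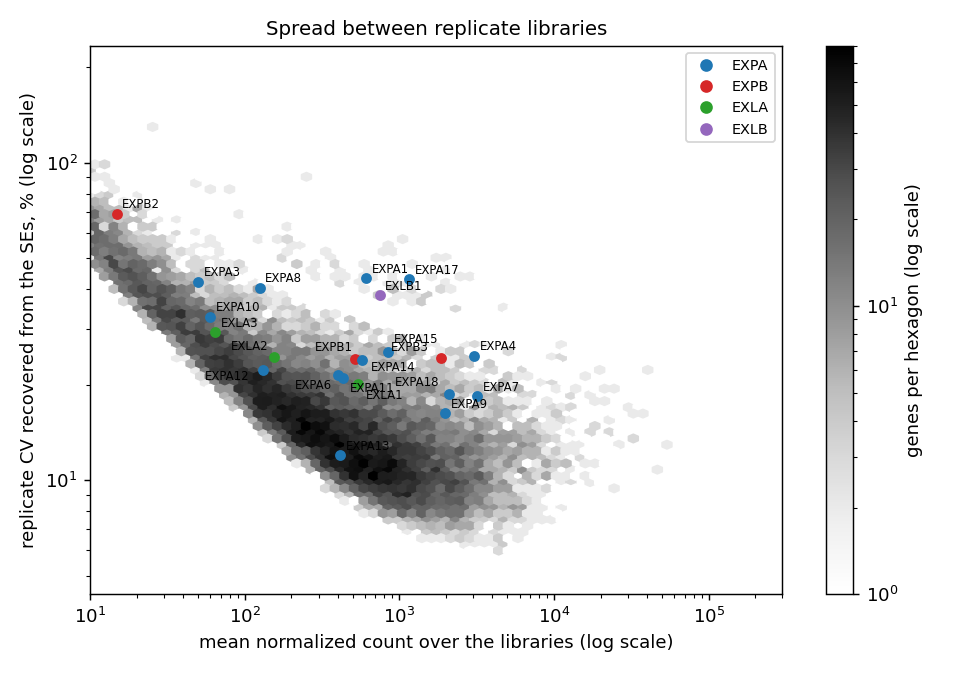
Replicate CV in percent against mean normalized count, both on log axes, for genes with a mean of at least 10 (grey hexagons, shaded by the number of genes) and for the expansin genes in that range, coloured by subfamily. Expansin genes between 500 and 5000 counts lie above the dense band, with a median CV of 24.2% against 11.7%, and EXPA20, EXPA16 and EXPA5 are below the plotted range.

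Wall loosening by expansins needs acid walls, which plasma membrane proton pumps provide, and SAUR proteins of the SAUR19 group keep those pumps active. Of 17 such genes listed, 11 had values, namely 10 proton ATPases and SAUR21, the only 1 of 6 SAUR genes with a row. SAUR21 had a mean count of 2.15 and AHA9 one of 5.75, so the SAUR group was hardly measured here. None of the 11 genes passed the threshold in any of the 5 comparisons. By the Wald or z test, 0 of 10 in SWT and 0 of 11 in each of the others had an adjusted p below 0.05. Unadjusted p-values below 0.05 were found for 0 of 11 in SWT, 0 in HO, 1 in water, 3 with CT and 1 for the difference of responses, against 20.8%, 1.85%, 4.71%, 22.9% and 11.9% of all genes. The main pump genes of roots, AHA2 and AHA1, had means of 55181 and 20441 and log2 fold changes with CT in SWT of -0.01 (SE 0.15) and 0.05 (SE 0.12).

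The genes of root hair outgrowth, which accompany EXPA7 and EXPA18 in hair cells, were all measured (21 of 21). By the Wald test 0 of 21 passed with CT in SWT (2 at an unadjusted p below 0.05), 0 in HO (0 unadjusted) and 0 for HO against SWT in water (5 unadjusted), and by the z test 0 for the difference of responses (0 unadjusted). Over all genes the shares passing were 11.5%, 0.00866%, 0.190% and 3.95% in the same order. At an unadjusted p below 0.05 they were 20.8%, 1.85%, 4.71% and 11.9%. With CT, 1 of 21 was higher in HO than in SWT, LRX2, a wall protein with leucine-rich repeats and an extensin domain (log2 difference 0.54, SE 0.16, adjusted p = 0.00714), against 4.28% of all genes, and 7 of 21 were at an unadjusted p below 0.05, against 22.9%. The median log2 fold changes were -0.03 for CT in SWT, -0.02 for CT in HO, 0.18 for HO against SWT in water and 0.20 for HO against SWT with CT, beside -0.01, -0.01, 0.00 and 0.00 over all genes.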

How the data were processed

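RNA-seq libraries from roots were grouped by the genotype and treatment in their labels, 3 in each of 4 groups. The authors aligned paired reads to TAIR10 with STAR 2.7.10a, counted them per gene with featureCounts 2.0.1 and fitted them with DESeq2 1.34.0. They deposited 3 tables of comparisons and 0 columns of values per library, so these comparison columns had to be used. The deposited signal is a mean normalized count, identical in the 3 tables. The deposited log2 values are fold changes and their SEs. The deposited score is the Wald statistic, equal to log2 fold change over SE to within 5.7e-09. The authors deposited a p-value and an adjusted p-value (Benjamini-Hochberg), with 3 genes lacking a p-value and 1344 more lacking an adjusted p in SWT.

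The expansin genes and gene lists were chosen with earlier results of these data known. The authors' Wald tests were used as deposited, at an adjusted p below 0.05. Response differences and the derived difference with CT (water difference plus HO response minus SWT response, its variance the summed response variances minus that of the water difference) were tested with z, two-sided, adjusted over 23103 genes. Group means and CVs were recovered from counts, fold changes and SEs. Deposited directions were checked over 8 sign combinations, of which the deposited one gave the highest Spearman correlation between dispersions from the SWT and HO tables (0.9995 over 9008 genes). Between the SWT and water tables, the median relative gap in dispersion was 0.002027 with the deposited signs and 0.001849 with the HO sign reversed. Calculations were tested on simulated data whose SEs came from the same formula, which checks the algebra and not the recovery from a DESeq2 fit. Genes passing any test or among the 8 highest per kb of exon were described in full. Others were to be given by range, with at most 3 by size of estimate, but EXPA1, EXPA6, EXPA8, EXPA12, EXPA13 and EXPB1 were also named after their values were seen, mostly for an unadjusted p below 0.05. All 31 identifiers matched RefSeq symbols. Coordinates and sequences are from the RefSeq annotation of TAIR10.1. Python 3.11.15, pandas 2.3.3, numpy 2.4.6 and scipy 1.17.1 were used.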

Additional observations from a re-analysis of the deposited data

How the results depend on the processing

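Each of the 5 comparisons was repeated under 6 alternatives. The count of expansin genes past the threshold stayed at 0 under all 6 for CT in SWT, CT in HO, HO against SWT in water and the difference of responses, and the call of CORK1 in water held under all 6. The study's fold criterion and the 0.01 threshold can only lower a count, so a count of 0 was fixed under them. A test against that criterion is also stricter than the main rule. Adjustment over every gene is the main rule again except for CT in SWT, where 1344 genes lacked an adjusted p. For HO against SWT with CT the count of 2 became 1 with the study's fold criterion, 0 at an adjusted p below 0.01, 0 in a test against that criterion and 0 with statistics divided by their robust spread. Adjustment over every gene repeats the main z test in this comparison, so the count of 2 could not change under it. With the z test adjusted over genes of mean at least 50 the count was 2 with a different pair. These were EXPA14 (adjusted p = 0.0217) and EXPB1 (0.0448), since EXPA3 fell under that minimum. The alternatives left the log2 values themselves untouched, so no sign could change. Counts over all genes moved by over 1.5 times under the fold criterion (2508 to 615 in SWT, 3068 to 745 with CT, 913 to 357 for the difference, and less, 44 to 30, in water), the 0.01 threshold (3068 to 2018 and 913 to 578; 44 to 26 and 2 to 0 in water and in HO), the test against the criterion (139, 181, 33, 4 and 0) and division by the spread (934 in SWT, 949 with CT, 586 for the difference and 48 in HO). No paired analysis was possible because the tables hold no values per library, and for the same reason leaving out each replicate was not run. Genes with means below 50 have wide intervals, and depth per library is unknown.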

Other observations

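PNP-A (AT2G18660), a small secreted protein related to expansins and annotated also as EXLB3, was outside the gene list and was looked at after its values were seen, together with EXPA21 and AT4G30380 (EXLB2). PNP-A had recovered group means of 5.78 in SWT with water, 34.7 in SWT with CT, 1.66 in HO with water and 8.19 in HO with CT. It rose with CT in SWT (log2 fold change 2.59, SE 0.91, adjusted p = 0.0406 by the Wald test). In HO the estimate was 2.31 (SE 1.09, adjusted p = 1.00), and the responses did not differ past the threshold (0.28, SE 1.42, adjusted p = 0.982). Its mean count was 12.6, so these values rest on few reads. EXPA21 and AT4G30380 had mean counts of 1.56 and 6.02 and passed in none of the 5 comparisons (0 at an unadjusted p below 0.05).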
